A study of Mus musculus with 12 samples.

Results

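The regions described here are 137 short stretches of the mouse autosomes at which CpG methylation in the left ventricle was intermediate and higher in offspring of mothers fed a high-fat diet (HFD) than in offspring of mothers fed a regular diet (RD). Each is a tile, a window of 500 bp that held at least 3 CpG sites with a value in all 12 samples and had a mean methylation of 20 to 80% over those samples. There were 9031 such tiles, and those with an HFD mean at least 8 percentage points above the RD mean were kept, which was 1.52%. The members were selected on this difference, so the difference is given below as a description and without a test. Methylation was at least 8 points lower in HFD at 397 tiles, or 4.4%.

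DNA came from the left ventricle of wild-type FVB/N offspring killed at weaning, at 3 weeks of age. Virgin FVB/NJ females received either Teklad high-fat chow or the PicoLab regular chow from 6 weeks of age until the end of the study, and after 8 weeks on it they were mated with RD-fed males of the same age. The HFD group was 3 females and 3 males, and the RD group was 4 females and 2 males. All offspring had an RD-fed father, and the number of mothers and the litter of each animal are not given in the labels, so the p-values below measure the spread between these samples, which may include littermates.

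Methylation of the cytosine in a CG pair is copied to the new strand when a cell divides, and it is usually dense within gene bodies and between genes and low at active CpG-rich gene starts. In bulk tissue an intermediate level can arise from cells of different types, from unlike parental copies, or from variable copying within 1 cell type. A difference between samples at such a tile can therefore be a different share of a cell type or a different level within cells, and these measurements cannot tell these apart. Reduced representation bisulfite sequencing reads the CG pairs close to CCGG, the site cut by the enzyme MspI, so each tile is a small cluster of neighbouring CG pairs.

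The number of sites with a listed value ran from 385299 in HFD male 4 to 417081 in HFD female 3. Pearson's r between any 2 samples across the 9031 tiles was 0.873 to 0.923, a correlation across tiles within samples that share their genome. Averaged over all 9031 tiles, methylation was 56.9 to 57.4% in the HFD samples and 57.4 to 58.5% in the RD samples. Library numbers ran from 2 to 8 in the HFD samples and from 9 to 14 in the RD samples, so library order and diet cannot be told apart. Of the 9031 tiles, 33 lay in or within 1 kb of a gene of the marker lists for cardiomyocytes, endothelial cells, fibroblasts, smooth muscle cells with pericytes, and blood cells. None of those 33 was a member, beside 1.52% of all 9031 tiles, and 5 were at least 8 points lower in HFD, beside 4.4%. Their mean level was 48.0 to 51.0% in the HFD samples and 49.7 to 53.4% in the RD samples, and the part of cell composition in the members' differences was not tested. DNA methylation gives no expression, so the tissue label was not checked against expressed markers.

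One member lay just before a gene start, and its CG pairs can be read directly in the RefSeq sequence (GRCm38.p6) around the start of Ugcg, which encodes the enzyme that adds glucose to ceramide in the first step of glycosphingolipid synthesis. The window is chr4:59189300-59189599 on the plus strand, from 250 bases before to 50 bases after the start. Klb and Mael each had a member within 1 kb of their start but outside the same window, and their windows (chr5:65348161-65348460, plus strand, and chr1:166238695-166238994, minus strand) are shown because the sites in them can be set beside the members. Klb encodes beta-klotho, a co-receptor for endocrine fibroblast growth factors, and Mael encodes Maelstrom, a germ-cell protein of transposon silencing. Capitals mark the CG pairs at which the deposited table lists a site, and the letters are in lower case elsewhere.
Ugcg: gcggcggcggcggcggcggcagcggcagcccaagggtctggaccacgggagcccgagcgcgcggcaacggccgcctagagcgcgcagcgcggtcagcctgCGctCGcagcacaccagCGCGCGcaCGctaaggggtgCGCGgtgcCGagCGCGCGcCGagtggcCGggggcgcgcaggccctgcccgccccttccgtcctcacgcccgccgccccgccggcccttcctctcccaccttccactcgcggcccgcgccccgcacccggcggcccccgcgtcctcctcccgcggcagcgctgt
Klb: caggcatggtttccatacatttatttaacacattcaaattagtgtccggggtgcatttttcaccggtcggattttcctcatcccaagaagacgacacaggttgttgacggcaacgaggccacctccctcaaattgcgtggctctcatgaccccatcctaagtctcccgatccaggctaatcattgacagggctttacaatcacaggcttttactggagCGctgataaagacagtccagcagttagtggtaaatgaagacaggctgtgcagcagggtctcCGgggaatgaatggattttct
Mael: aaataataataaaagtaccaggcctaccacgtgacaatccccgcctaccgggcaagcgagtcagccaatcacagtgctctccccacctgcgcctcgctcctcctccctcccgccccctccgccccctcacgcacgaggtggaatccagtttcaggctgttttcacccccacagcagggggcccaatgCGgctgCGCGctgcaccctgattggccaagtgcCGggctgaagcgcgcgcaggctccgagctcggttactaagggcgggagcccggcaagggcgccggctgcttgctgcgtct
The Ugcg window held 53 CG pairs, a number reached by 0.451% of the 32851 RefSeq start windows of the same length, and the MspI motif CCGG, which reads the same on both strands and contains a CG pair, occurred 3 times in it. Of 14 listed sites there, 13 had a value in every sample and all 13 belonged to the member. The Klb window held 10 CG pairs and the Mael window 24, numbers reached by 43.5% and 19.98% of windows. At least 1 CCGG was present in 52.8% of all windows.

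Moving the diet labels among the animals of each sex gave 350 arrangements, the labelled one included. Over the other 349, between 64 and 351 tiles were at least 8 points higher in the group called HFD, with a median of 127 and quartiles of 104 and 156. The 137 tiles of the true labels lay between those quartiles, and 143 of the 349 arrangements gave at least as many. The tiles lower in HFD differed from this: the 397 found with the true labels compared with 68 to 341 over the other arrangements, with a median of 123, and none of the 349 reached 397. These counts describe the arrangements, which share animals, and carry no p-value.

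**Figure D1:**
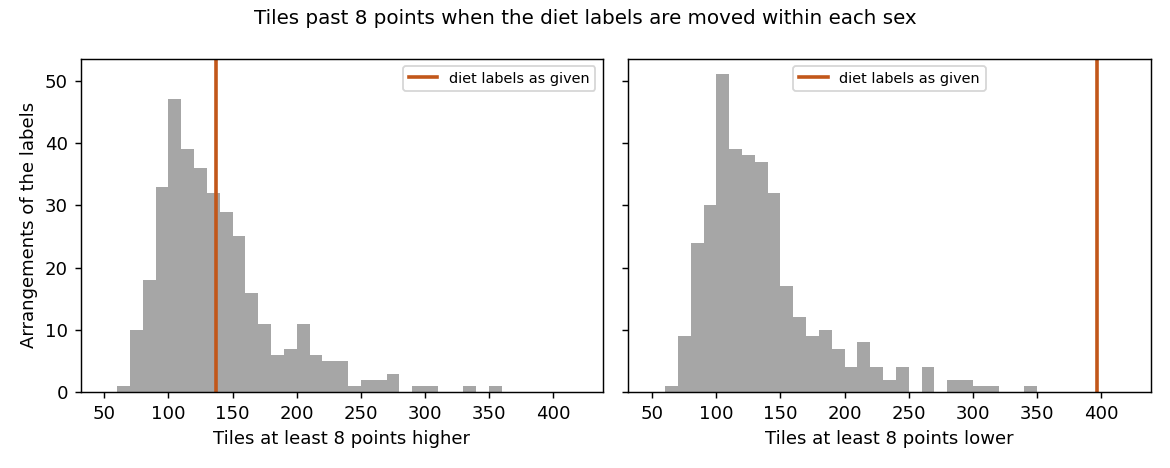
Number of tiles at least 8 points higher (left) or lower (right) in the group called HFD, on the x axes, against the number of label arrangements, on the y axis; grey bars are the 349 arrangements other than the true one and the orange line is the true one. The true count of higher tiles, 137, falls in the body of its distribution, and the true count of lower tiles, 397, lies above the highest of the others, 341.

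Most members exceeded the threshold by little. Their median difference was 9.42 points, with a range of 8.001 to 22.2, against a median of -0.49 over all 9031 tiles. A difference of 8 to 9 points was found at 54 members, a difference over 12 at 16 and a difference over 15 at 5. Just inside the threshold lay a tile 2904 bp from 1700029J03Rik, at 8.005 points, a tile in the phosphatase gene Ptpn13, at 8.002, and a tile in Hmcn2, which encodes a hemicentin of the extracellular matrix, at 8.001. Just outside it lay tiles in Dnaic2 (7.98) and Gm40339 (7.97) and a tile of chromosome 12 lying 22560 bp from the pseudogene Gm18503 (7.92). The difference was above 0 in both sexes at 131 of the 137 members, beside 2033 of all 9031 tiles, and at least 8 points in both sexes at 46. Selection on the pooled difference favours this agreement. At 7 members the lowest HFD sample lay above the highest RD sample, as it did at 13 of all 9031 tiles (0.144%), a separation that the choice of members favours.

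Animals of the same diet were further apart at the members than at intermediate tiles in general, which was described and not tested. The median SD over members was 6.95 points within HFD and 6.93 within RD, against 4.58 and 4.56 over all 9031 tiles. An RD SD over 10 points was found at 18.2% of the members and at 5.25% of all tiles. The 397 lower tiles had similar spreads, with medians of 6.84 within HFD and 6.50 within RD. Selection on the size of a difference of means favours tiles with a wide spread between samples, whichever the direction. Averaged over the 137 members, the HFD samples lay at 57.2 to 59.7% and the RD samples at 47.4 to 49.3%, a gap set by the selection. RD male 2 was the lowest of the 12 samples at 30 members and RD female 1 at 26, and HFD female 2 was the highest at 31, so no single animal supplied the extreme value at most members.

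The largest difference was at 3 sites in Dpy19l3 (chr7:35697183-35697247), whose product attaches mannose to tryptophan residues. Methylation there was 33.3% in the lowest HFD sample, 52.9% in the median and 67.6% in the highest, against 23.3, 26.7 and 40.4% in RD. Only HFD male 4 lay below the highest RD sample. The means were 51.3% ± 11.9 in HFD and 29.1% ± 6.29 in RD (SD, n = 6 each), a difference of 22.2 points.

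**Figure D2:**
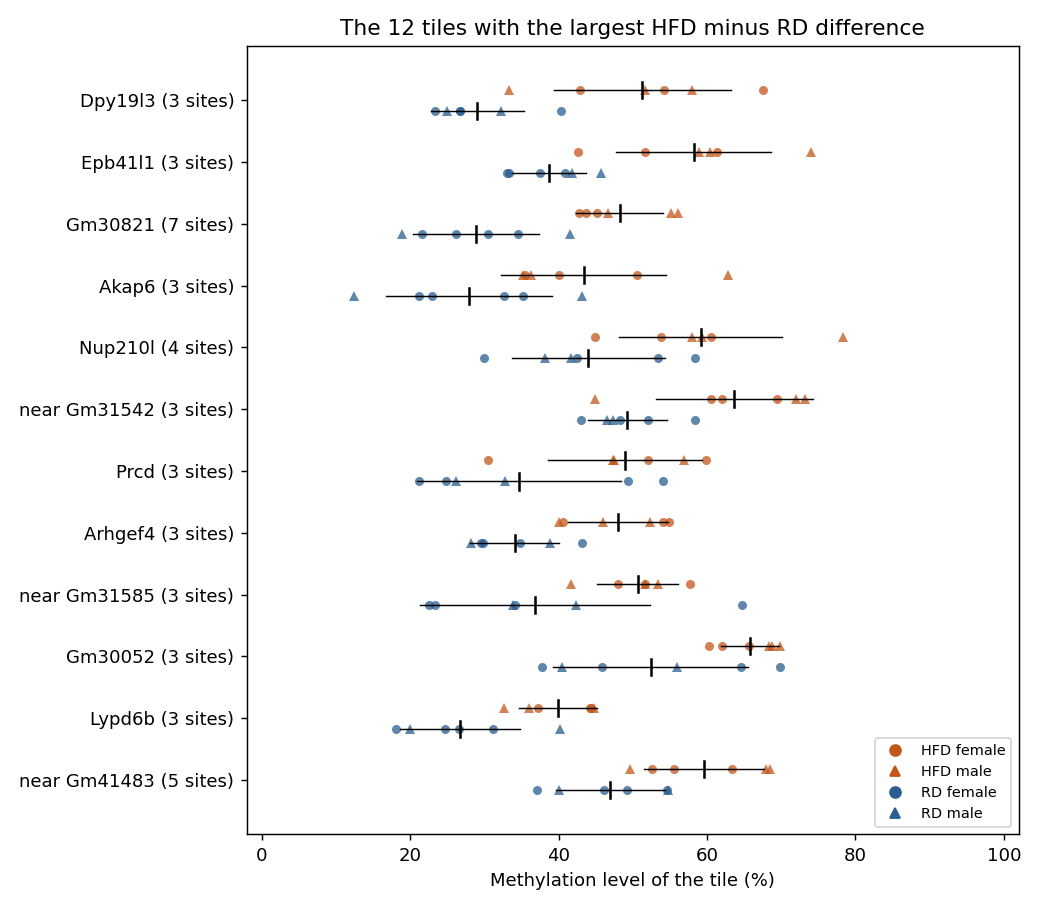
Methylation level (x axis, %) in each of the 12 samples at the 12 members with the largest HFD minus RD difference, named by the gene they lie in or the nearest gene (y axis); circles are females, triangles males, vertical ticks the diet means and horizontal lines 1 SD on each side. The diets overlap at 11 of the 12 tiles and do not at the tile in Gm30821.

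The next member, in Epb41l1 (chr2:156446513-156446572), a gene for a protein of the membrane skeleton, had 42.7, 59.7 and 74.0% as the lowest, median and highest HFD values. The RD values were 33.0, 39.1 and 45.7%, so that only HFD female 3 fell within the RD range. The difference was 19.5 points (58.2% ± 10.5 against 38.7% ± 5.03; SD, n = 6 each).

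The third was a group of 7 sites in Gm30821, a long non-coding RNA gene (chr18:68692099-68692154), and the largest member without overlap between the diets. Its HFD samples ranged from 42.7 to 56.1% with a median of 45.9%, and its RD samples from 18.9 to 41.5% with a median of 28.3%. All 7 sites were higher in HFD, by 17.1 to 22.1 points. Leaving out any 1 sample kept the difference of 19.4 points between 17.4 and 21.9.

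Akap6, which encodes an anchor of protein kinase A at the nuclear envelope of heart muscle cells, held the fourth member (chr12:52848087-52848121). Its levels were 35.2, 38.2 and 62.8% in the lowest, median and highest HFD samples and 12.4, 27.8 and 43.1% in RD. The SD was 11.1 points in each diet, and 2 HFD samples lay above the highest RD sample, HFD female 2 and HFD male 2. The fifth, in Nup210l (chr3:90133960-90133998), a nucleoporin-like gene, had a difference of 15.2 points, which was 7.03 points in females and 25.3 in males.

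The remaining 7 of the 12 largest differed by 12.6 to 14.4 points. They lay in Prcd, a gene of photoreceptor discs, in Arhgef4, a guanine nucleotide exchange factor gene, in Lypd6b, in the non-coding gene Gm30052, and between genes nearest to Gm31542, Gm31585 and Gm41483. At Arhgef4 (chr1:34700268-34700342) the HFD samples spanned 40.0 to 54.8% and the RD samples 28.2 to 43.2%, with medians of 49.2 and 32.3%. At the tiles near Gm31585 and in Gm30052, no HFD sample exceeded the highest RD sample, and the RD SD was 15.5 and 13.2 points. In these 2 tiles the RD samples were spread from 22.5 to 64.6% and from 37.8 to 69.9%, so the whole HFD range lay within the RD range. The tile near Gm41483 (chr16:85300164-85300340) was 126457 bp upstream of the start of App, the amyloid precursor protein gene.

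The 6 other members without overlap between the diets had smaller differences, of 8.001 to 12.4 points. A tile 4300 bp from Pax5, a transcription factor of the B-cell lineage, differed by 12.4 points (chr4:44520387-44520448, 56.6% ± 3.43 against 44.2% ± 5.36; SD, n = 6 each). Its HFD samples ran from 52.8 to 60.9% and its RD samples from 38.7 to 51.8%. A tile 20982 bp from the pseudogene Gm11189 differed by 11.3 points and a tile 5979 bp upstream of Cyp3a11, a drug-metabolising cytochrome of the liver, by 10.5 points. Mark4, a microtubule affinity-regulating kinase gene, held 4 sites with low levels (chr7:19456023-19456057), at 23.3 to 36.3% in HFD and 18.6 to 23.0% in RD. Its RD SD of 1.78 points was the lowest of any member. The tile in Hmcn2 differed by 8.001 points with an HFD minimum of 65.5% and an RD maximum of 65.4%. The distance between the lowest HFD and the highest RD sample was 0.0699 to 1.60 points over the 7 tiles.

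Klb was the seventh of these, and the only one within 1 kb of a listed start of a protein-coding gene. The tile in Gm30821 was not assessed for this. Its member (chr5:65348684-65348750) began 273 bp inside the gene, with HFD samples at 67.0, 71.1 and 74.8% (lowest, median, highest) and RD samples at 52.1, 61.4 and 66.8%. The diets were separated there by 0.163 points. All 4 of its sites were higher in HFD, by 8.16 to 11.003 points. The 2 complete sites of the Klb start window printed above averaged 32.3% ± 8.84 in HFD and 26.4% ± 9.39 in RD (SD, n = 6 each), less than the spread between samples.

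Distance to a RefSeq start was assessed for 130 members, and 7 (5.38%) lay within 1 kb of the listed start of a protein-coding gene. Among all tiles assessed the share was 5.94%, and among the lower tiles 9.02%. Starts of some genes were absent from the list: the listed start nearest to the tile inside Tbx2 was that of Tbx4, 55897 bp away. These counts may therefore miss members near a start that is not listed. At the Ugcg member (chr4:59189401-59189457), 93 bp before the start, the HFD samples were at 3.84, 22.3 and 54.5% and the RD samples at 0.385, 4.70 and 64.9% (lowest, median, highest). RD female 1 was the highest of all 12 samples there, while the other 5 RD samples were at 12.5% or lower. The difference of 11.1 points was -2.30 in females and 31.3 in males. It was 21.1 points without RD female 1 and 5.46 points without HFD male 4, the highest HFD sample. The 13 sites stood at nearly one level, with site means of 23.2 to 28.1% in HFD and 11.1 to 16.6% in RD.

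**Figure D3:**
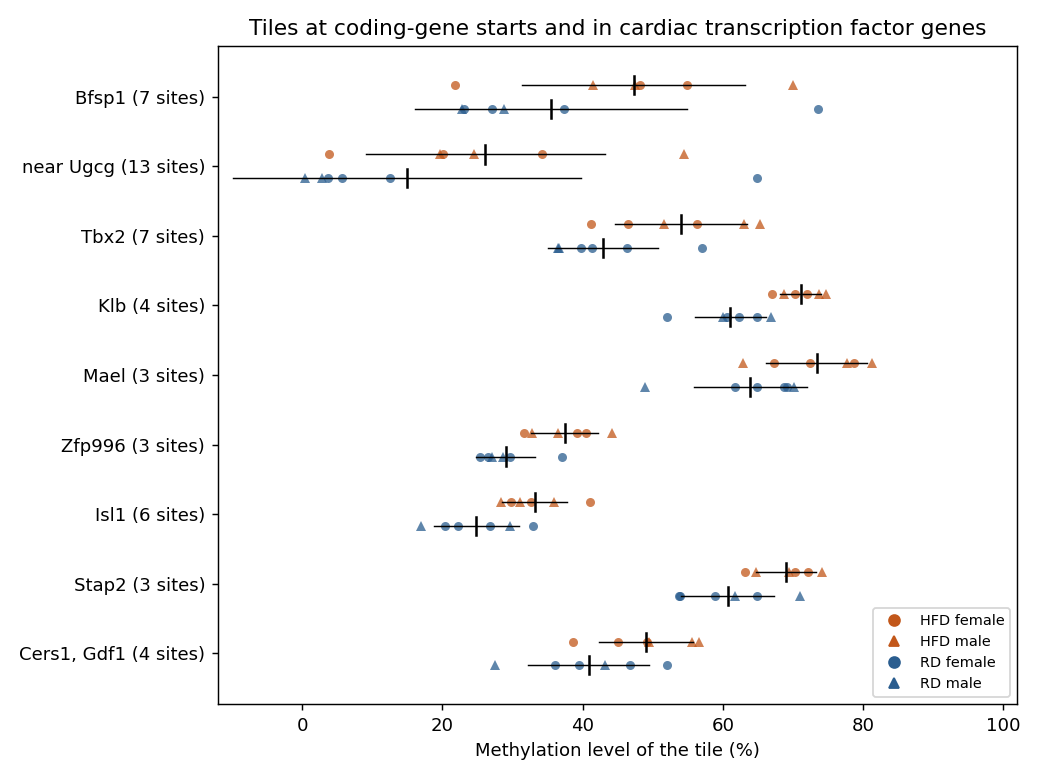
Methylation level (x axis, %) in each of the 12 samples at the 7 members within 1 kb of a coding-gene start and the 2 members in cardiac transcription factor genes (y axis); circles are females, triangles males, vertical ticks the diet means and horizontal lines 1 SD on each side, which reaches below 0 for RD at Ugcg. RD female 1 stands at 73.6% at Bfsp1 and at 64.9% at Ugcg, above every other sample at both tiles.

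Bfsp1, the gene of filensin, a filament protein of the eye lens, had a member 675 bp inside its start with the same animal at the top. RD female 1 stood at 73.6%, and the other RD samples at 22.9 to 37.3%. The HFD samples were spread from 21.8 to 70.1% with a median of 47.8%. The difference of 11.8 points was 1.31 in females and 27.2 in males, and it was 19.5 points without RD female 1 and 7.27 points without HFD male 3.

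Mael, Zfp996, Stap2 and Gdf1 had members within 1 kb of their start with differences of 9.49, 8.42, 8.30 and 8.24 points. Zfp996 encodes a zinc finger protein and Stap2 a signalling adaptor. Gdf1 encodes a ligand of left-right patterning in the embryo, and it shares its locus with the ceramide synthase gene Cers1, which the same member overlaps. At Mael (chr1:166238418-166238471) the HFD samples ran from 62.8 to 81.3% and the RD samples from 48.9 to 70.2%, while the 4 sites of the start window printed above, 302 bp away, averaged 50.4% in HFD and 51.7% in RD. Near Zfp996, the sites of the start window averaged 18.0% in HFD and 15.6% in RD, a difference of 2.47 points. At Gdf1 and Cers1 the difference was 0.688 points in females and 18.5 in males. At the start windows of Klb, Mael and Zfp996, the mean difference was under 8 points. Stap2 has more than 1 RefSeq start, and 3 sites at a start other than the one within 1 kb of its member stood at 6.76% in HFD and 11.1% in RD.

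Among the lists of genes examined, members occurred in cardiac transcription factors only. Of 15 intermediate tiles in or near 10 of these genes, 2 were members, beside 1.52% of all 9031 tiles, and 0 were at least 8 points lower, beside 4.4%. The median difference was 1.33 points, against -0.49 over all tiles. In the gene body of Tbx2, a repressor that patterns the atrioventricular canal and outflow tract, 7 sites (chr11:85840798-85840868) were at 41.2, 53.9 and 65.4% in HFD and at 36.5, 40.6 and 57.1% in RD (lowest, median, highest). All 7 sites were higher in HFD, by 2.38 to 15.5 points. The difference of 11.1 points was 1.85 in females and 23.5 in males, and RD female 1 was again the highest RD sample. A low tile 991 bp further on (chr11:85841859-85841931) stood at 15.6% in HFD and 6.95% in RD, a difference of 8.65 points in sites that the choice of members had not used. Isl1, a transcription factor of cardiac progenitors, held 6 sites (chr13:116303208-116303278) at 28.4, 31.9 and 41.0% in HFD and at 16.95, 24.5 and 33.0% in RD, with a difference of 8.85 points in females and 8.54 in males. The groups overlapped at both genes. With 2 genes in a list chosen with earlier results known, nothing is read from this count for the list.

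The other lists held no member. They covered imprinted genes (35 tiles, of which 12 were at least 8 points lower in HFD, median difference -5.07), fatty acid oxidation (13 tiles, 0 lower, median 0.37), insulin and IGF signalling (11 tiles, 0 lower, median 0.02), immune signalling (6 tiles, 1 lower, median -0.80) and developmental homeobox genes (8 tiles, 0 lower, median -0.09). The cell type lists gave 13 tiles for cardiomyocytes, 9 for endothelial cells, 5 for fibroblasts, 5 for smooth muscle cells with pericytes and 1 for blood cells. Endothelial genes had 3 lower tiles and a median of -4.18 points, and cardiomyocyte genes had 2 and a median of -1.09 points. The fibroblast, smooth muscle and blood lists had 0 lower tiles. Over all lists together, 2 of 121 tiles were members and 18 were lower, beside 1.52% and 4.4% of all 9031 tiles.

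The members were scattered over the genome. All 19 autosomes held at least 1, from 1 each on chromosomes 14 and 19 to 12 on chromosome 11, and 87 protein-coding genes overlapped a member. As a share of a chromosome's tiles, members ran from 0.306% on chromosome 14 to 2.94% on chromosome 16. On chromosome 11, which had 775 tiles, the share was 1.55%. Inside protein-coding genes lay 82 members (59.9%, against 58.7% of all tiles and 67.5% of the lower tiles). Another 6 lay inside other genes (4.38%, against 9.09% of all tiles), and 49 lay between genes (35.8%, against 32.2%). More than 10 kb from any gene were 23 members, or 16.8%, the same share as among all tiles. Exons, introns and untranslated regions were not assigned, since the gene table used here has none.

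Members had few sites. Only 3 sites were present in 76 of them (55.5%, against 43.6% of all tiles), and only 2 held 10 or more, the tile at Ugcg and a tile overlapping Mfsd12. The share of tiles at least 8 points higher was 1.93% among tiles of 3 sites, 1.28% with 4, 1.27% with 5, 1.25% with 6 to 9 and 0.455% with 10 or more. The share at least 8 points lower was 4.70, 4.64, 3.98, 3.38 and 4.77% in the same bins, so it followed the same order up to 9 sites and differed in the last bin, which held 440 tiles. By mean level, 1.66% of tiles between 20 and 40%, 2.21% of those between 40 and 60% and 1.11% of those between 60 and 80% were members.

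**Figure D4:**
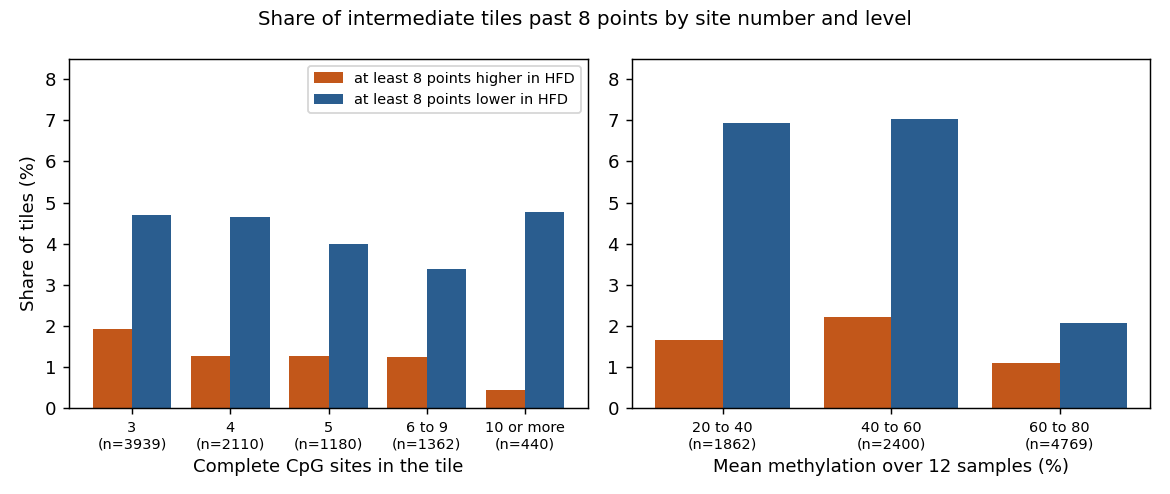
Share of the 9031 intermediate tiles (y axis, %) that were at least 8 points higher (orange) or lower (blue) in HFD, by the number of complete sites per tile (left) and by mean level (right); n is the number of tiles in each bin. The orange bars go from 1.93% at 3 sites to 0.455% at 10 or more, and the blue bars go from 4.70% at 3 sites to 3.38% at 6 to 9 and stand at 4.77% at 10 or more.

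The 552 complete sites within the members chose them, so their direction was largely set by the selection. Of these, 544 were higher in HFD and 366 were higher by at least 8 points, with a median of 10.1, and in 129 members every site was higher. Another 59 sites in 29 of these tiles lacked a value in some samples and had taken no part in the choice. Of those, 29 were higher in HFD and 12 were higher by at least 8 points, with a median difference of -0.117 points, against -0.521 over all complete sites of the 9031 tiles. How far the missing values themselves bear on this was not tested.

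Members aside, neighbours at least 8 points higher in HFD numbered 0 of 18 up to 500 bp. They numbered 1 of 7 from there to 1000 bp, 1 of 71 to 5 kb and 0 of 515 to 50 kb. Among all 38449 tiles of any level there were 223, a count that includes the 137 members, which the neighbour counts leave out. At least 8 points lower were 0 neighbours up to 5 kb and 7 from 5 to 50 kb, beside 460 of all 38449 tiles. Above 0 were 50.1% of all 38449 tiles. Leaving out neighbours that were members themselves, 18 tiles of any level lay up to 500 bp from a member, of which 10 were above 0 with a median of 0.61 points. Beyond that, up to 1000 bp, lay 7, of which 5 were above 0. Of the 9 intermediate neighbours up to 500 bp, 6 were above 0 and the median was 1.24 points. Past 1000 bp and up to 5 kb, 8 of 18 intermediate neighbours were above 0 with a median of -0.99 points, and 34 of 71 of any level with a median of -0.10. From 5 to 50 kb, 54 of 142 intermediate neighbours were above 0 (38.0%), beside 43.7% of all intermediate tiles, and the median was -0.61 points. Neighbours are counted as pairs with a member, so a tile near more than 1 member is counted more than once. At 5 to 50 kb, members included, 517 pairs of any level held 490 tiles. The closest pair of members was in Prcd, 37 bp apart, where a tile at 24.6 to 42.1% in HFD and 18.9 to 27.8% in RD adjoined one at 30.5 to 59.8% and 21.1 to 54.1%. The other pair within 10 kb was at Tab1, the gene of an activator of the kinase TAK1, with 1 tile in the gene (chr15:80160110-80160164, 83.6% against 72.5%) and 1 tile 1867 bp outside it (chr15:80163574-80163617, 73.5% against 63.1%). At Bfsp1 a tile 85 bp away was nearly unmethylated in both diets, at 3.43 and 3.51%.

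**Figure D5:**
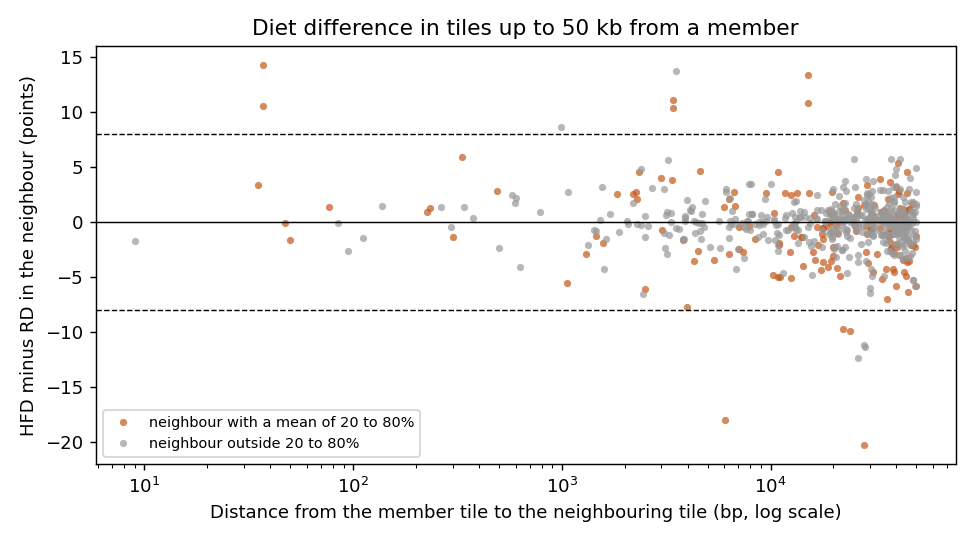
HFD minus RD difference (y axis, percentage points) in tiles up to 50 kb from a member, against their distance from it (x axis, bp, log scale); orange points are neighbours with a mean of 20 to 80% and grey points the others, the solid line is 0 and the dashed lines are 8 points on each side. Members that neighbour each other are included: up to 500 bp, 2 of 20 neighbours are past 8 points, and they are the pair in Prcd.

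Sex was tested at the members because its estimate does not depend on the diet difference that selected them. With limma on log ratios of the tile means, 4 of 23791 autosomal tiles differed between females and males at an adjusted p-value under 0.05 (0.0168%), and 0 of the 137 members did. At an unadjusted p-value under 0.05 there were 10 members (7.30%), beside 5.56% of all tiles tested, with 5 of the 10 higher in females. The member with the smallest p-value lay in Rhpn2 (chr7:35381516-35381559). It stood at 86.2% ± 2.90 in HFD females (n = 3) and 78.6% ± 2.08 in HFD males (n = 3). In RD it stood at 75.2% ± 1.91 in females (n = 4) and 68.6% ± 0.701 in males (n = 2, SD throughout). The limma adjusted p-value for sex, with diet as a term, was 0.749. In Pip4k2b, a phosphoinositide kinase gene, females were at 68.7% ± 7.20 and males at 59.6% ± 7.26 (limma adjusted p = 0.788), and near Gm18496 they were at 74.9% ± 6.53 and 68.4% ± 8.06 (limma adjusted p = 0.808).

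Whether the diet difference itself depended on sex was tested with the interaction in limma. It passed the threshold at 0 of 23791 tiles (0%), with 5.09% at an unadjusted p-value under 0.05, and at 0 of the 137 members, where 10 (7.30%) passed without adjustment. Among members the lowest adjusted p-value was 0.931, shared by 5 tiles, 1 of them the Tbx2 tile, and the 3 with the smallest unadjusted p-value are described. The tile 2788 bp from the mucin gene Muc5b went from 59.2% ± 5.61 in RD females (n = 4) to 77.0% ± 7.51 in HFD females (n = 3), and from 65.7% ± 0.504 in RD males (n = 2) to 64.1% ± 4.74 in HFD males (n = 3; SD throughout). The tile near Gm41918 differed by 3.05 points in females and 21.2 in males, and the tile 404 bp from Perp, a gene of cell adhesion in epithelia, by 15.6 points in females and -1.75 in males. The larger differences in males at Ugcg, Bfsp1, Tbx2, Nup210l and Gdf1 rest on 2 RD males and did not pass this test.

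For the diet contrast, which the choice of members used, limma called 7 of the 23791 tiles at an adjusted p-value under 0.05 (0.0294%). This count is given as background for the whole table. All 7 were lower in HFD, 0 were members, and nothing is read from it for the members.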

How the data were processed

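The authors deposited 1 table with a row per CpG position and a column per sample, whose values are percent methylation, as the values' range of 0 to 100 shows. The submitters' processing notes name FastQC, Trim Galore, Bismark 0.19, limma and the build mm10, without roles or order. The table has no read counts or coverage, so the depth behind each value and its counting error are unknown, and rates were analysed in place of counts. Positions were kept as deposited, and the number of columns that matched no sample was 0. As a check of the build, of 45522 listed sites inside RefSeq start windows (GRCm38.p6), 45514 (99.98%) lay on a C or G of a CG pair. Both strands are listed, as separate sites.

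Autosomal sites with values in all 12 samples (306534 of 421177) were averaged in windows of 500 bp, which gave 38449 tiles with 3 or more sites, of which 9031 had a mean of 20 to 80%. Coordinates run from the first to the last site used. Gene positions came from a RefSeq gene table of GRCm38.p6. Limma 3.58.1 (R 4.3.3) was run on log2((rate + 0.05)/(1 − rate + 0.05)) of 23791 tiles with means of 5 to 95%, with sex and diet as terms, plus their product for the interaction. Tests were two-sided, with Benjamini-Hochberg adjustment over all 23791 tiles, and were checked on simulated rates. Figures were drawn with matplotlib 3.10.9.

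The members, the 11 gene lists (183 genes) and the tests were chosen with earlier results of these data known. Tiles named are the 12 largest differences, members without overlap, members within 10 kb of each other or within 1 kb of a coding start, members in listed genes, the 3 with the smallest p-value for sex and for the interaction, and 3 on each side of the threshold. Alternatives covered tile position, site number, missing values, strands, the weight of the sexes, the threshold, the scale, the offset, the limits on the mean, the variances, a replicate block and leaving out each sample. 2 further alternatives, centring each sample and leaving out HFD male 4 with RD female 1, were chosen after seeing the data.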

Additional observations from a re-analysis of the deposited data

Results flagged for a closer look

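In 78 groups of 6 samples (a diet at a named tile, or the number of sites with a value), 6 held a sample whose gap to its nearest neighbour took more than 0.625 of the group's range. Chance flags about 1 in 20 groups, or 3.9 of 78. RD female 1 accounts for 3 of them. It stood at 73.6% at Bfsp1, where the other RD samples were at 22.9 to 37.3%, and at 64.9% at Ugcg, where they were at 0.385 to 12.5%. At the tile near Muc5b it was the lowest, at 50.9%, with the others at 61.2 to 66.0%. RD female 4 stood at 37.1% at Zfp996, above the other RD samples at 25.4 to 29.7%. HFD female 3 stood at 13.2% at the tile near Gm41918, below the other HFD samples at 27.8 to 32.5%. HFD male 4 had 385299 sites with a value, and the other HFD samples 406225 to 417081. Without HFD male 4 and RD female 1 together, 180 tiles were at least 8 points higher in HFD, and 104 of the 137 members were among them.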

How the results depend on the processing

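The number of tiles at least 8 points higher in HFD, 137, was 131 with tiles shifted by 250 bp, 136 with adjacent strands merged and 153 with the sexes weighted equally. It was 34 with at least 5 sites per tile, 53 with a threshold of 10 points and 299 with missing values allowed (121 of the members among them). Centring each sample on its mean gave 187, with all 137 members among them. Leaving out 1 sample gave 151 to 185 tiles, of which 106 to 117 were members. Replicate numbers did not pair the animals: deviations of same-numbered animals correlated at -0.015 to 0.026 across tiles, and the replicate block, over 4 pairs, gave 242 tiles (100 of the members). In limma the block was instead the replicate number across all 12 samples and both sexes. That block gave 0 tiles for sex and 3 for diet. The sex count of 4 was 1 with untransformed rates, 0 with an offset of 0.01, 1 with means of 20 to 80%, and 0 to 5 without 1 sample (0 without RD male 1 or RD male 2). The diet count of 7 was 17 with untransformed rates, 19 with means of 20 to 80%, and 3 to 11 without 1 sample (3 without HFD female 4 or RD male 2, 11 without HFD female 3 or RD female 4). With untransformed rates and with means of 20 to 80%, 1 of the calls was higher in HFD and was a member, the Rhpn2 tile, which was chosen for that difference. Without a limit on the mean (8 calls) and without HFD female 3, 1 call was higher and none was a member. The interaction count was 0 under every alternative run, those without 1 sample included. The cause was not tested. The planned coverage minimum was not run, because the table used here has no coverage.

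Of the 31 members named for their difference, separation, position, gene list or nearness to the threshold, 12 fell under 8 points without at least 1 sample. They were the tiles at Ugcg, Bfsp1, Mael, Zfp996, Stap2, Gdf1, Isl1, Ptpn13, Hmcn2 and 1700029J03Rik and both tiles at Tab1, with Isl1 down to 6.73 points and Gdf1 down to 5.58. With 6 samples a diet, 3 or 4 sites in most members and unknown depth, the precision of a single tile's difference is limited, and no counting error can be given.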

Other observations

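The 5 members given next were picked by hand after their values were seen, and they stand for no group of genes. In Aplnr, the apelin receptor gene, 4 sites (chr2:85137614-85137732) stood at 34.9% ± 5.54 in HFD and 26.8% ± 7.39 in RD (SD, n = 6 each here and below). Gata2, a transcription factor of blood and endothelial cells, held 3 sites at 49.3% ± 4.15 and 41.3% ± 4.91. The Wnt ligand gene Wnt2 held 3 sites at 77.7% ± 5.08 and 67.9% ± 12.5, and the cholesterol exporter gene Abca1 held 5 sites at 64.7% ± 5.47 and 55.2% ± 6.08. A tile 2292 bp from Bag3, a co-chaperone gene of heart muscle, stood at 48.1% ± 6.72 and 39.1% ± 9.23. The diets overlapped at all 5.

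Related pairs of genes also occurred, likewise noticed after the values were seen. The anchor protein genes Akap6 and Akap7 each held a member, with differences of 15.5 and 8.23 points, and so did the related genes Rhpn1 and Rhpn2, with 8.38 and 9.42 points. Whether such pairs occur more often than among other tiles was not tested.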
